A study of Populus davidiana with 6 samples.

Results

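A set of 55 loci lay near silence in control leaves of the Korean aspen Populus davidiana and reached 2 FPKM or more in leaves of air-dried plants. FPKM is a fragment count scaled for transcript length and for the size of the library. The loci were chosen by their values in the same comparison: a summed level under 1 FPKM in all 3 control libraries and of at least 2 FPKM in all 3 air-dried libraries, at least 1 transcript with a POPTR name, and a genomic span of 500 to 8000 bases. Of 40537 loci in the files, 32369 met the conditions on name and span, and the 55 made up 0.17% of these. Because the choice used the control and air-dried values, the levels of the 55 loci are given as a description and carry no test.

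The air-dried group held 3 leaf libraries from plants of cultivar Palgong2 about 6 weeks old, which were taken out of their medium, rinsed with sterile water and kept in open air for about 10 minutes. The control group held 3 leaf libraries of the same cultivar labelled control, with no drying named. All plants were seedlings of a cultivar labelled drought tolerant, propagated from internodes in vitro on a medium with sucrose and the auxin naphthalene acetic acid. The sources used here do not say whether control plants were also lifted and washed, so drying and handling cannot be told apart. Nor do they say that each library came from a separate plant, and spreads between libraries may be technical.

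Plant cells that lose water or are touched begin to transcribe new genes within minutes. In Arabidopsis, transcripts of this early kind include those of AP2/ERF and zinc finger transcription factors, of calcium-binding proteins and of enzymes for the hormone abscisic acid, and genes with a fast response to stress tend to be compact and poor in introns. The files give no gene name or description, so none of the 55 loci can be assigned to such a family, and the leaf label could not be checked against marker genes. The loci are therefore described by identifier and position, in the coordinates of the files, whose genome build the sources used here do not name. POPTR identifiers have the form used for gene models of black cottonwood, Populus trichocarpa. No sequence of the loci was at hand.

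The files hold no counts, so absolute depth is unknown. Relative depth, read from the steps between the lowest values, lay between 0.917 and 1.01 times that of control replicate 1 in the other libraries. Between 22227 and 22702 loci reached 1 FPKM in a library. Air-dried replicate 1 lay farthest from its group over all loci, with a limma library weight of 0.290 where air-dried replicate 3 had 7.495. Without it, which leaves the rule a condition less so that all 55 must still meet it, 60 loci did so. Their median log2(FPKM + 1) difference was 1.87, against 2.10 over the 55 loci, so these medians cover different loci.

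Near-silent loci were common and few of them left that state. In control leaves 13604 loci of the stated span and naming lay under 1 FPKM in every library, and 12943 of them (95.1%) also lay under 1 FPKM in every air-dried library, 8103 of which were listed at 0 in all 3 air-dried libraries. The 99th percentile of the lowest air-dried value of the 13604 loci was 1.13 FPKM. A level of at least 1 FPKM in all air-dried libraries was seen at 175 loci, at least 2 FPKM at 55, at least 5 FPKM at 21, at least 10 FPKM at 12 and at least 20 FPKM at 3. In bulk leaf RNA, more cells that express a gene and more RNA in each such cell cannot be told apart.

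The same limits turned round gave far fewer loci. Of 13281 loci under 1 FPKM in every air-dried library, 48 had at least 1 FPKM in every control library and 5 had at least 2 FPKM, and none had 5 FPKM. The highest of these 5 in control leaves, POPTR_0015s14110, had 0.721, 0.474 and 0.691 FPKM in air-dried replicates 1, 2 and 3 and 4.03, 3.82 and 3.43 FPKM in control replicates 1, 2 and 3. Libraries of each group do not overlap at any of these loci by construction. The count of 5 rests on the FPKM as deposited and was not repeated with other scalings. Those shifted the balance of higher and lower loci over all loci tested.

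**Figure D1:**
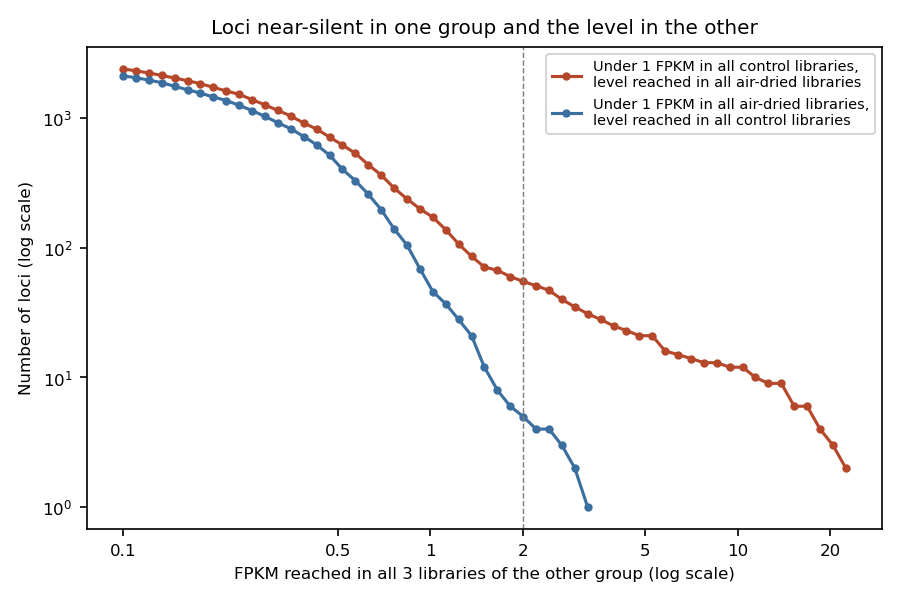
Number of loci (log scale) that reached a given FPKM (log scale) in all 3 air-dried libraries while under 1 FPKM in all control libraries, and the opposite. At the dashed line at 2 FPKM there are 55 loci and 5 loci, and counts of 0 are not drawn.

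Together the 55 loci summed to 468, 402 and 402 FPKM in air-dried replicates 1, 2 and 3 and to 24.8, 23.0 and 24.2 FPKM in control replicates 1, 2 and 3. The median locus had a mean of 4.77 FPKM in air-dried leaves and 0.442 FPKM in control leaves. The means ran between 2.03 and 24.7 FPKM in air-dried leaves and between 0 and 0.814 FPKM in control leaves. At the 52 loci with any control signal the ratio of the air-dried to the control mean had a median of 12.9 and ran between 3.77 and 66.7, with 29 loci at 10 or more and 15 at 20 or more. A control mean under 1 FPKM rests on few fragments, so these ratios are imprecise.

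The median log2(FPKM + 1) difference of air-dried minus control, a scale that shrinks differences between low values, was 2.10 over the 55 loci and 0.07 over the 22729 loci tested. All 55 passed the filter of 1 FPKM in at least 3 libraries, and they did so through the air-dried group. Limma called 54 of the 55 higher at an adjusted p under 0.05 (Benjamini-Hochberg), against 7.28% of all loci tested, but the choice of the loci used this contrast and nothing is read from the count. The remaining locus, POPTR_0014s10460, had the widest spread between air-dried libraries.

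**Figure D2:**
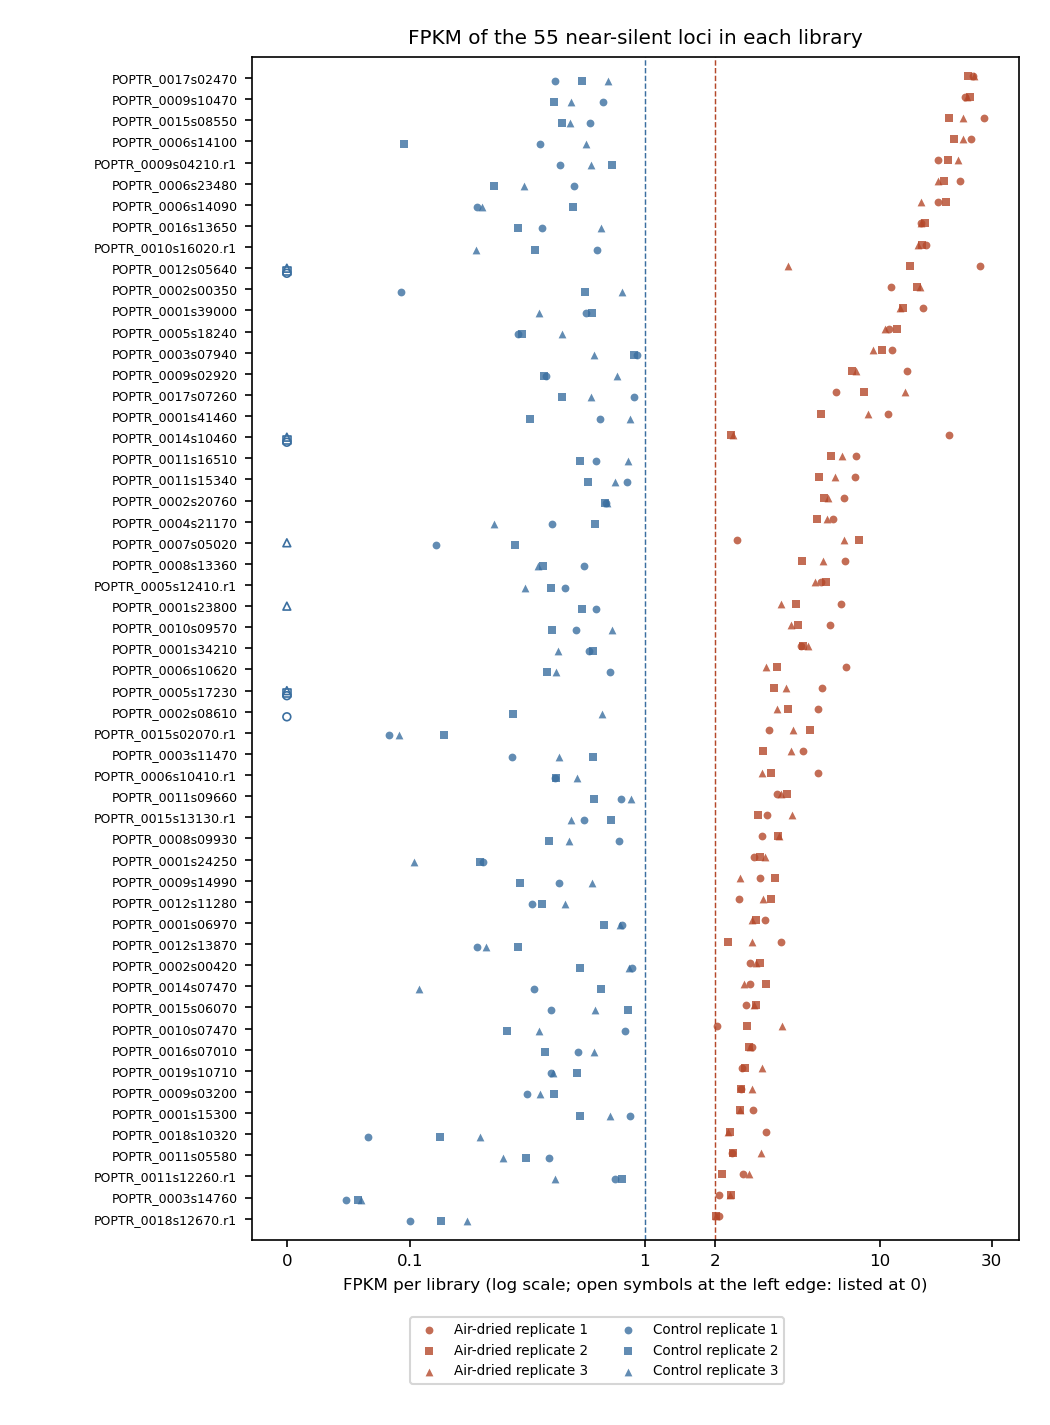
FPKM per library (log scale) of each of the 55 loci, ordered by air-dried mean, with air-dried libraries in red, control libraries in blue, and 1 symbol per replicate. Dashed lines mark the limits of 1 and 2 FPKM used to choose the loci, and open symbols mark values listed at 0. As the rule requires, red symbols lie at or above 2 FPKM and blue ones below 1 FPKM.

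Only 4 loci averaged 20 FPKM or more in air-dried leaves, and each had 1 annotated transcript. POPTR_0017s02470, on the minus strand of chromosome 17 at 1781538 to 1783081, had 25.03, 23.9 and 25.3 FPKM in air-dried replicates 1 to 3 and 0.416, 0.542 and 0.701 FPKM in control replicates 1 to 3. POPTR_0009s10470, on the plus strand of chromosome 9 at 9000204 to 9001004, had 23.1, 24.3 and 23.5 FPKM in the air-dried and 0.662, 0.413 and 0.484 FPKM in the control libraries. These are the highest air-dried levels of the set, and the 3 air-dried values lay close together at both loci. In POPTR_0015s08550, on the plus strand of chromosome 15 at 9842656 to 9845099, air-dried libraries held 27.7, 19.6 and 22.7 FPKM and control libraries 0.586, 0.444 and 0.480 FPKM. In POPTR_0006s14100, on the plus strand of chromosome 6 at 11403548 to 11404485, air-dried libraries held 24.6, 20.7 and 22.7 FPKM and control libraries 0.360, 0.0944 and 0.564 FPKM. Its ratio of means, 66.7, was the highest of the set, and its control values differed among themselves more, relative to their mean, than its air-dried values did.

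A further 10 loci averaged between 10.3 and 19.6 FPKM in air-dried leaves. POPTR_0009s04210.r1, on the plus strand of chromosome 9 at 4695401 to 4698442, had 17.8, 19.5 and 21.5 FPKM in air-dried libraries and 0.438, 0.729 and 0.588 FPKM in control libraries. POPTR_0006s23480, on the plus strand of chromosome 6 at 22192804 to 22193878, had 22.0, 18.8 and 17.8 FPKM in air-dried libraries and 0.499, 0.229 and 0.306 FPKM in control libraries. POPTR_0006s14090, next to POPTR_0006s14100 on the plus strand of chromosome 6 at 11398834 to 11399764, had 17.7, 19.2 and 15.0 FPKM in air-dried libraries and 0.194, 0.495 and 0.204 FPKM in control libraries. The 3 highest ratios of means of the set, 66.7, 58.2 and 56.7, all belonged to loci on chromosome 6, POPTR_0006s14100, POPTR_0006s14090 and POPTR_0006s23480.

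POPTR_0016s13650, on the minus strand of chromosome 16 at 12811596 to 12812444, had 15.0, 15.6 and 15.0 FPKM in air-dried leaves and 0.367, 0.290 and 0.653 FPKM in control leaves. At POPTR_0010s16020.r1, on the plus strand of chromosome 10 at 15086593 to 15088287, the values were 15.7, 15.2 and 14.5 FPKM in air-dried and 0.629, 0.340 and 0.192 FPKM in control libraries. Both loci had nearly equal air-dried values, with coefficients of variation of 2.42% and 4.01%. In POPTR_0002s00350, on the plus strand of chromosome 2 at 93065 to 94085, air-dried libraries held 11.2, 14.4 and 14.8 FPKM and control libraries 0.0921, 0.556 and 0.802 FPKM. In POPTR_0001s39000, on the minus strand of chromosome 1 at 38234977 to 38236403, air-dried libraries held 15.3, 12.5 and 12.2 FPKM and control libraries 0.562, 0.596 and 0.354 FPKM. At POPTR_0002s00350 control replicate 1 lay far below the other control libraries, and at POPTR_0001s39000 air-dried replicate 1 lay above the other air-dried ones; at neither did the groups overlap. POPTR_0005s18240 and POPTR_0003s07940 averaged 11.1 ± 0.692 and 10.3 ± 0.969 FPKM in air-dried leaves, against 0.345 ± 0.0879 and 0.814 ± 0.178 FPKM in control leaves (SD, n = 3).

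The lower part of the set was larger. In air-dried leaves 12 loci averaged between 5.02 and 9.56 FPKM and 29 loci between 2.03 and 4.95 FPKM. The median ratio of air-dried to control means was 45.9 in the 4 highest loci, 33.5 in the next 10, 13.8 in the next 12 and 7.95 in the last 29, an order that follows from ranking by the air-dried mean. High ratios also occurred at low levels where the control was very low. POPTR_0003s14760, on the plus strand of chromosome 3 at 14751228 to 14752136, had 2.08, 2.32 and 2.30 FPKM in air-dried leaves and 0.0536, 0.0603 and 0.0622 FPKM in control leaves, a ratio of means of 38.0. POPTR_0015s02070.r1, on the plus strand of chromosome 15 at 1413253 to 1415044, had 3.37, 5.05 and 4.29 FPKM in air-dried and 0.0815, 0.140 and 0.0898 FPKM in control libraries, a ratio of 40.9. Over the 55 loci the control and air-dried means were nearly unrelated, with a Spearman rho of 0.08 across loci that share the same 6 libraries.

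The word silent fits few of them in the strict sense, since only 3 loci were listed at 0 in every control library. POPTR_0012s05640, on the plus strand of chromosome 12 at 5380389 to 5381489, had 26.8, 13.4 and 4.09 FPKM in air-dried replicates 1, 2 and 3. POPTR_0014s10460, on the minus strand of chromosome 14 at 7809141 to 7809759, had 19.6, 2.33 and 2.37 FPKM in those libraries. POPTR_0005s17230, on the plus strand of chromosome 5 at 14472150 to 14473010, had 5.71, 3.56 and 4.001 FPKM in them. A listed 0 can be a failed estimate in values of this kind, so no fold is given. In each of the 3 loci air-dried replicate 1 held the highest value, and at POPTR_0014s10460 it lay far above the other air-dried libraries. Another 3 loci were listed at 0 in 1 control library, POPTR_0007s05020 and POPTR_0001s23800 in control replicate 3 and POPTR_0002s08610 in control replicate 1.

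Air-dried libraries agreed on the order of the loci better than control libraries did. Over the 55 loci the Spearman rho between air-dried libraries was 0.81 for replicates 1 and 2, 0.76 for 1 and 3 and 0.93 for 2 and 3. Between control libraries it was 0.56, 0.52 and 0.47. These are descriptions over loci, in a range that the limits made narrow in control leaves.

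The coefficient of variation over air-dried libraries had a median of 12.4% in the set, against 10.6% in the 10835 other loci of the same naming and span that had at least 2 FPKM in all air-dried libraries and a mean in the same range. It was below 10% at 22 loci and above 50% at 3. The steadiest was POPTR_0016s07010, on the minus strand of chromosome 16 at 4802115 to 4803781, with 2.85, 2.78 and 2.81 FPKM in air-dried leaves and 0.521, 0.376 and 0.606 FPKM in control leaves (coefficient of variation 1.19% over air-dried libraries). POPTR_0018s12670.r1 came next with 2.12%, followed by POPTR_0016s13650 and POPTR_0009s10470 with 2.42% and 2.44%.

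At the other end stood POPTR_0014s10460 with 123%, POPTR_0012s05640 with 77.3%, POPTR_0007s05020 with 51.2% and POPTR_0006s10620 with 45.8%. POPTR_0007s05020, on the plus strand of chromosome 7 at 3222616 to 3223407, had 2.48, 8.18 and 7.03 FPKM in air-dried libraries and 0.129, 0.280 and 0 FPKM in control libraries. POPTR_0006s10620, on the plus strand of chromosome 6 at 7958719 to 7959428, had 7.19, 3.67 and 3.27 FPKM in air-dried libraries and 0.713, 0.385 and 0.421 FPKM in control libraries. At 3 of these 4 loci the spread came from air-dried replicate 1 alone, which lay below the other libraries of its group at POPTR_0007s05020 and above at POPTR_0014s10460 and POPTR_0006s10620. At POPTR_0012s05640 all 3 air-dried values were spread out, with replicate 1 the highest.

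Over the whole set air-dried replicate 1 held the highest of the air-dried values at 28 loci and the lowest at 18. Its share of highest values was 50.9%, against 53.9% in the other loci of matching level, and its median log2 ratio to the mean of replicates 2 and 3 was 0.05, against 0.10 in those loci. The excess of air-dried replicate 1 in the sum over the 55 loci, 468 against 402 and 402 FPKM, came with no larger share of highest values than in those loci. Loci with a large excess in replicate 1 included POPTR_0012s05640, with 26.8 FPKM against 13.4 and 4.09 FPKM in replicates 2 and 3. At POPTR_0014s10460 the values were 19.6 FPKM against 2.33 and 2.37 FPKM, and both loci were listed at 0 in every control library.

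**Figure D3:**
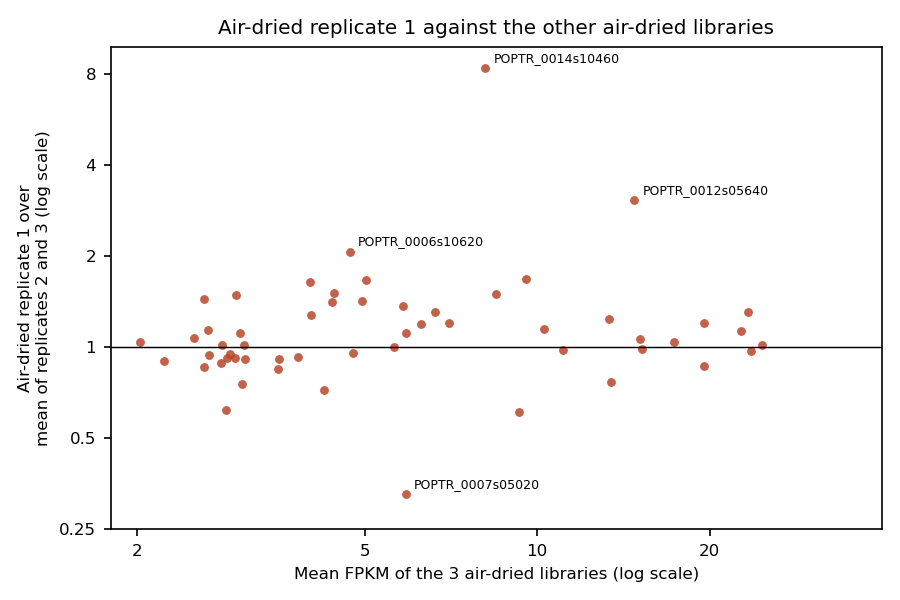
Ratio of air-dried replicate 1 to the mean of air-dried replicates 2 and 3 (log scale) against the mean of the air-dried libraries in FPKM (log scale), 1 point per locus of the 55. Most points lie near 1, and the 4 loci with the widest spread are named.

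The rule's limits cut through a continuous range. Just inside the control limit stood POPTR_0003s07940, POPTR_0017s07260 and POPTR_0002s00420, whose highest control values were 0.930, 0.896 and 0.886 FPKM. Just outside it stood POPTR_0003s15870, POPTR_0016s14490 and POPTR_0009s11270, whose highest control values were 1.02, 1.04 and 1.04 FPKM and whose lowest air-dried values were 5.92, 4.47 and 6.57 FPKM. Just inside the air-dried limit stood POPTR_0018s12670.r1, POPTR_0010s07470 and POPTR_0003s14760, with lowest air-dried values of 2.00, 2.03 and 2.08 FPKM. Just outside stood POPTR_0012s13180, POPTR_0016s14170 and POPTR_0005s20850 with 1.93, 1.92 and 1.91 FPKM. Between 1 and 1.5 FPKM in their highest control library lay 45 further loci that met all other conditions.

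Of 7 loci that met both FPKM limits but not the conditions on span or name, POPTR_0009s11380 was closest to inclusion, with a span of 489 bases. It had 12.6, 14.3 and 12.4 FPKM in air-dried leaves and 0.286, 0.807 and 0 FPKM in control leaves. POPTR_0006s03710, of 483 bases, had 2.38, 3.55 and 2.65 FPKM in air-dried and 0, 0.305 and 0 FPKM in control leaves. The others were 2 loci over 8000 bases and 3 assembled loci without a POPTR transcript. The strongest of these, XLOC_029909 on chromosome 5, only 156 bases long, had 147, 41.2 and 12.3 FPKM in air-dried replicates 1, 2 and 3 and was listed at 0 in every control library. Its air-dried values differed by more than 10 times among themselves, again with replicate 1 the highest.

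In structure the loci were short and simple. Their genomic spans, introns included, had a median of 1331 bases and quartiles of 920 and 1731 bases, and ran between 619 and 4981 bases. Other loci with at least 2 FPKM in all air-dried libraries had a median span of 3466 bases. The 388 other loci of this span and naming called higher at least 2-fold by limma had 1617 bases. Over all loci tested, of any span or name and members included, 2.18% were called so. Other loci under 1 FPKM in all control libraries had 1446 bases. The 55 loci were thus close in span to the other near-silent loci. Span and the air-dried mean were weakly related over the set, with a Spearman rho of -0.14.

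A similar picture held for transcripts. Of the 55 loci, 46 (83.6%) held 1 transcript, against 91.5% of the other near-silent loci, 60.6% of the other loci called higher at least 2-fold and 21.0% of the other loci with at least 2 FPKM in all air-dried libraries. At 47 loci (85.5%) all transcripts were annotated, against 92.9% of the other near-silent loci. No test was made of these shares.

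**Figure D4:**
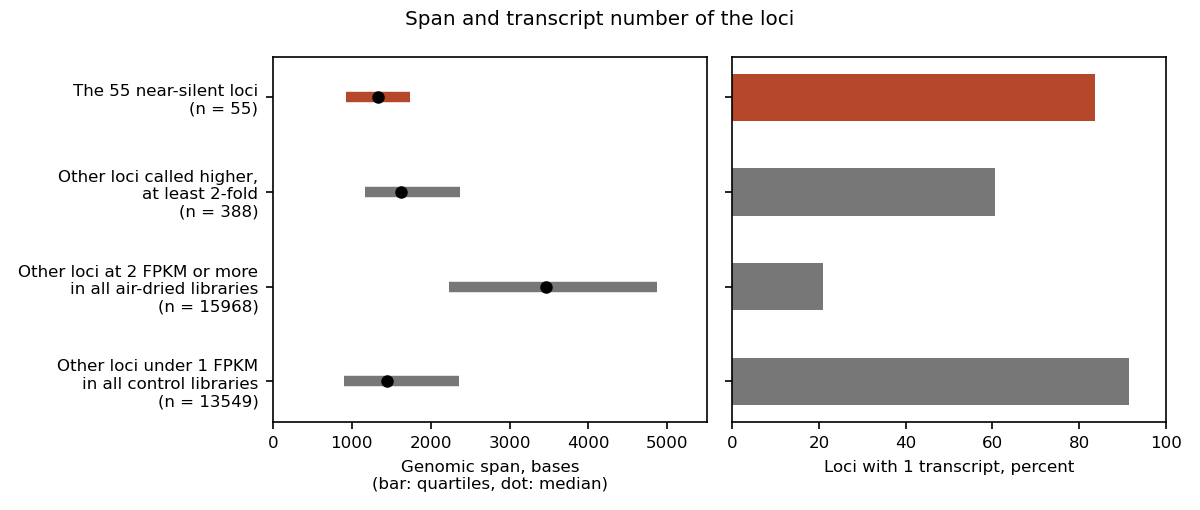
Genomic span in bases (bar between the quartiles, dot at the median) and percent of loci with 1 transcript for the 55 loci and 3 other sets of loci with the same conditions on span and name. The 55 loci have a median span of 1331 bases, against 3466 bases at other loci of at least 2 FPKM in air-dried leaves. Other loci called higher at least 2-fold have 1617 bases, and other loci under 1 FPKM in all control libraries have 1446 bases.

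At 5 of the 9 loci with more than 1 transcript, at least 80.6% of the mean air-dried level was assigned to a single form, though not in every library. The annotated transcript carried at least 99.03% of the mean air-dried level at POPTR_0010s16020.r1, POPTR_0015s02070.r1 and POPTR_0009s04210.r1. At POPTR_0005s12410.r1, on the plus strand of chromosome 5 at 9164043 to 9169023, both annotated transcripts were at or near 0 in all libraries. An assembled transcript over the whole 4981 bases of that locus had 5.62, 5.92 and 5.30 FPKM in air-dried leaves and 0.460, 0.400 and 0.309 FPKM in control leaves. Nearly the whole level of this locus was thus assigned to the assembled form in both groups.

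Assembled forms also led at POPTR_0018s12670.r1, where the longer assembled transcript had 2.08, 1.67 and 1.16 FPKM and the annotated one a value near 0, 0.331 and 0.849 FPKM in air-dried replicates 1 to 3. In control leaves the assembled form was near 0 in replicates 1 and 2 and had 0.175 FPKM in replicate 3, and the annotated one had 0.0999 and 0.136 FPKM in replicates 1 and 2 and was near 0 in replicate 3. The summed level of this locus was nearly the same in the 3 air-dried libraries while its division between the forms was not. At POPTR_0012s11280, with 2 annotated transcripts, the first form had 0.0454, 3.45 and 3.19 FPKM in air-dried replicates 1 to 3, and the second had 2.47 FPKM in replicate 1 and was near 0 in the others. Control replicate 1, too, was assigned to the second form, at 0.331 FPKM, and control replicates 2 and 3 to the first. Counting transcripts of status known only, a choice made after the data were seen, gave 59 loci that shared 51 with the set, and lost POPTR_0011s12260.r1, POPTR_0015s13130.r1, POPTR_0018s12670.r1 and POPTR_0005s12410.r1.

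The loci were scattered over the genome, on 18 of 19 numbered chromosomes. Chromosome 1 held 7 loci, chromosomes 6, 9 and 11 held 5 each, and chromosome 13 held none of its 1150 loci with the required span and name. As a share of such loci the values ran up to 0.398% on chromosome 11, against 0.17% overall. All 5 loci on chromosome 6 lay on the plus strand, as did 29 of the 55 in all. None lay on an unplaced scaffold, where 5.30% of the loci of this span and naming lay. That share was 9.23% in the other near-silent loci and 2.84% in the other loci called higher at least 2-fold. In other loci with at least 2 FPKM in all air-dried libraries it was 1.89%, so a count of 0 among 55 loci says little.

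Only 1 pair of the 55 loci, POPTR_0006s14090 and POPTR_0006s14100, had no other tested locus between its members. They were 931 and 938 bases long, lay 3783 bases apart on the same strand and had consecutive identifiers. The next locus downstream, POPTR_0006s14110, at 11415819 to 11416430 on the same strand, missed the set through its control values. It had 14.9, 17.0 and 15.5 FPKM in air-dried leaves and 1.17, 0.490 and 1.08 FPKM in control leaves, a log2 difference of 3.15 (limma, adjusted p = 0.000259). Upstream of the pair the nearest locus, POPTR_0006s14080, had 328, 337 and 334 FPKM in air-dried leaves and 305, 275 and 325 FPKM in control leaves (limma, log2 difference 0.15, adjusted p = 0.359). Farther upstream, POPTR_0006s14070.r1 and POPTR_0006s14060.r1 were not called different either (limma, log2 differences -0.32 and -0.09, adjusted p = 0.132 and 0.761).

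Farther downstream the next loci, POPTR_0006s14120 and POPTR_0006s14130, were listed at 0 or lay under 0.5 FPKM in every library. Beyond them, within 100000 bases of the start of POPTR_0006s14090, 3 loci rose as well, at levels well above near-silence in control leaves. POPTR_0006s14140, at 11449037 to 11450511, had 41.4, 53.4 and 49.99 FPKM in air-dried leaves and 12.3, 15.1 and 10.9 FPKM in control leaves (limma, log2 difference 1.84, adjusted p = 0.00124). POPTR_0006s14150.r1 had 52.8 ± 2.98 FPKM in air-dried and 36.1 ± 3.08 FPKM in control leaves, and POPTR_0006s14160 had 13.3 ± 2.09 FPKM in air-dried and 6.07 ± 0.525 FPKM in control leaves (SD, n = 3; limma, log2 differences 0.54 and 1.01, adjusted p = 0.0152 and 0.00635).

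**Figure D5:**
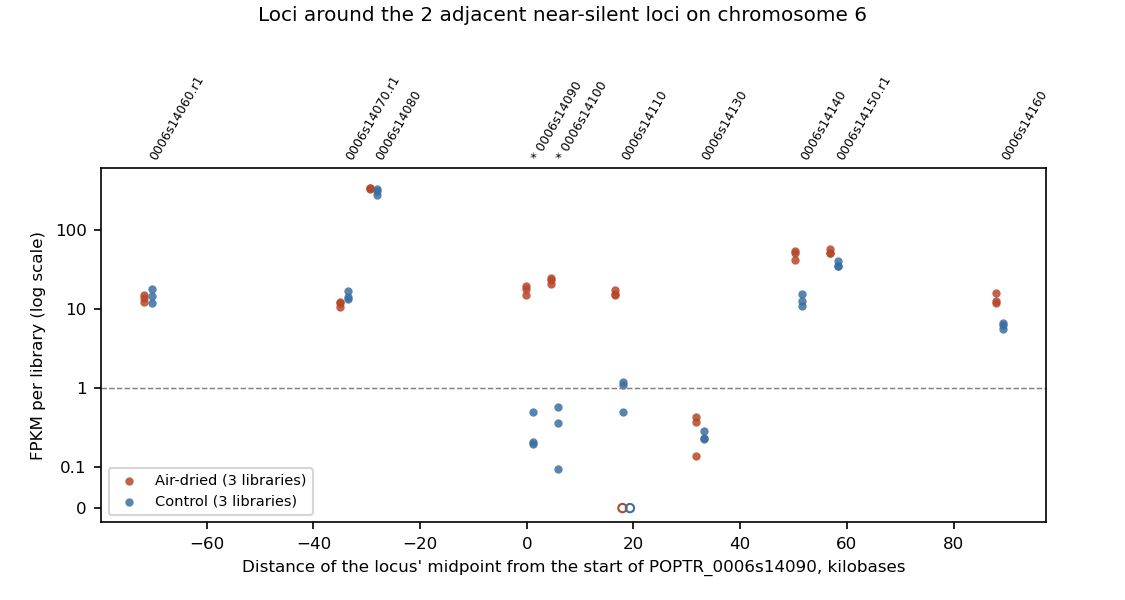
FPKM in each library (log scale, open symbols listed at 0) of the loci around POPTR_0006s14090 and POPTR_0006s14100, which are starred, against distance in kilobases from the start of POPTR_0006s14090. Both starred loci and POPTR_0006s14110 have air-dried values above 10 FPKM and control values near or below 1 FPKM.

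Other members of the set lay farther apart. POPTR_0002s00350 and POPTR_0002s00420, on opposite strands at the start of chromosome 2, were separated by 47968 bases and 6 other loci. POPTR_0006s10410.r1 and POPTR_0006s10620 were separated by 164834 bases, and POPTR_0009s02920 and POPTR_0009s03200 by 211844 bases. The remaining distances between consecutive members on a chromosome were at least 400225 bases.

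At 4 of the 55 loci (7.27%, against 12.4% of all loci of this span and naming) another locus overlapped, and at 3 of these the other locus was much longer. POPTR_0005s17230 lay wholly inside XLOC_028035 on the same strand of chromosome 5, whose long assembled transcript at 14418323 to 14473059 reached past it. XLOC_028035 had 50.8, 102 and 93.2 FPKM in air-dried libraries and 3.72, 4.50 and 3.65 FPKM in control libraries (limma, log2 difference 4.01, adjusted p = 0.00065). Fragments of POPTR_0005s17230 could be assigned to either locus, and its listed 0 in control leaves is uncertain for that reason. The next locus downstream, POPTR_0005s17250 at 14484348 to 14485262, rose to 12.04 ± 2.47 FPKM in air-dried leaves, against 1.73 ± 0.409 FPKM in control leaves (SD, n = 3; limma, adjusted p = 0.00113).

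POPTR_0017s07260, on the minus strand of chromosome 17 at 5634566 to 5635896, had 6.53, 8.56 and 12.8 FPKM in air-dried libraries and 0.896, 0.445 and 0.592 FPKM in control libraries. It lay within the 216221 bases of XLOC_016582 on the opposite strand, which had 28.2, 35.2 and 36.6 FPKM in air-dried and 3.63, 3.21 and 2.53 FPKM in control libraries (limma, log2 difference 3.06, adjusted p = 0.000175). In air-dried leaves most of that level was assigned to an annotated transcript at 5843071 to 5844565, far from POPTR_0017s07260, with 28.2, 32.4 and 36.6 FPKM in air-dried and 3.55, 1.804 and 2.53 FPKM in control libraries. The long assembled transcript that spans POPTR_0017s07260 held 2.76 FPKM in air-dried replicate 2 and 1.40 FPKM in control replicate 2, and under 0.1 FPKM in the other libraries. POPTR_0017s02470 lay within XLOC_017032 on the same strand, which had 6.47 ± 0.437 FPKM in air-dried leaves and 2.35 ± 0.237 FPKM in control leaves (SD, n = 3; limma, adjusted p = 0.00143). POPTR_0005s12410.r1 shared 521 bases with POPTR_0005s12420.r1 on the opposite strand, at 6.55 ± 1.37 FPKM in air-dried and 5.96 ± 0.169 FPKM in control leaves (limma, adjusted p = 0.707). At POPTR_0017s07260 and POPTR_0005s12410.r1 the other locus lies on the opposite strand, and the sources used here do not say whether the library kit marked strand. At POPTR_0005s17230 and POPTR_0017s02470 the other locus lies on the same strand. How fragments were divided between overlapping loci cannot be seen from FPKM.

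The nearest tested loci on each side of the set, which the rule did not choose, mostly showed no called difference. Of 108 such neighbours, members left out, 14 (12.96%) passed limma as higher in air-dried leaves and 2 (1.85%) as lower (adjusted p under 0.05), against 7.28% and 2.81% of all loci tested. At least 2-fold higher were 7 neighbours (6.48%, against 2.18%) and at least 2-fold lower was 1 (0.926%, against 0.295%). Their median gap to the member was 8337.5 bases and their median log2 difference was 0.12, against 0.07 over all loci tested. Leaving out control replicate 1 or 3 or air-dried replicate 2 or 3 brought the neighbours called higher to 8, 8, 7 and 8, while the share called higher over all loci tested was then 3.86%, 3.85%, 4.48% and 3.50%. Without air-dried replicate 1 13 neighbours were called higher, against 6.38% of all loci tested.

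Within 100000 bases the share of loci called higher was highest within 5000 bases of a member, a range that includes loci overlapping a member. It was 12.5% of 40 tested loci within 5000 bases of a member, 8.96% of 134 from there to 20000 bases, 9.31% of 247 to 50000 bases and 7.84% of 357 to 100000 bases. The share called higher at least 2-fold was 7.5%, 4.48%, 3.64% and 2.24% over the same distances, against 2.18% of all loci tested. The first of these stands for 3 loci, XLOC_016582, XLOC_028035 and XLOC_017032, which all overlap a member. Neighbours within 5000 bases that do not overlap a member were called higher at XLOC_007023 and POPTR_0002s00430.r1, both by less than 2-fold (log2 differences 0.69 and 0.65). Within 5000 bases, the higher share is thus not shown for loci apart from the members. Without the 3 neighbours that overlapped their member, and at any distance, 12 of 105 neighbours (11.4%) were called higher, against 7.28% of all loci tested. At least 2-fold higher were 5 of the 105 (4.76%, against 2.18%). XLOC_017032, which contains POPTR_0017s02470, was not among the neighbours, since these were taken in order of start position. On the same strand as the member 7 of 52 were called higher, and 2 of 23 where the neighbour was divergent and 4 of 31 where it was convergent. The counts are small, and no test of the shares was made.

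Besides XLOC_016582, XLOC_028035, POPTR_0005s17250 and POPTR_0006s14110, 3 neighbours rose at least 2-fold. POPTR_0001s41490, 33183 bases downstream of POPTR_0001s41460, had 5.999 ± 0.770 FPKM in air-dried leaves and 1.24 ± 0.124 FPKM in control leaves (SD, n = 3). POPTR_0019s10720.r1, upstream of POPTR_0019s10710 on the same strand, had 10.9 ± 1.88 FPKM in air-dried and 3.85 ± 0.147 FPKM in control leaves, and POPTR_0011s15380.r1, convergent with POPTR_0011s15340, had 11.1 ± 0.546 and 5.01 ± 0.474 FPKM in air-dried and control leaves. The neighbour that fell at least 2-fold was POPTR_0017s02480, 3754 bases upstream of POPTR_0017s02470, the highest locus of the set, with 8.45, 8.12 and 8.88 FPKM in air-dried leaves and 17.0, 19.6 and 19.6 FPKM in control leaves (limma, log2 difference -1.05, adjusted p = 0.00124). All 8 neighbours kept their direction and an adjusted p under 0.05 in limma under every alternative run, but 4 of them did not keep a 2-fold change throughout. The log2 difference of POPTR_0011s15380.r1 was 0.94, 0.89, 0.90 and 0.98 with median-of-ratios, upper-quartile and quantile scaling and with library weights. Without control replicate 3 it was 0.95 and without air-dried replicate 1 it was 0.98. At POPTR_0017s02480 the log2 difference was -0.98 with library weights. With a pseudocount of 5, the log2 difference was 0.82 at POPTR_0001s41490, 0.84 at POPTR_0019s10720.r1, 0.69 at POPTR_0011s15380.r1 and -0.81 at POPTR_0017s02480.

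The loci beside the set were near-silent about as often as loci in general. Of the 108 loci immediately beside a member, tested or not, 41 (38.0%) lay under 1 FPKM in all control libraries, against 42.5% of all loci. At 10 of the 55 loci the immediate neighbours on both sides were near-silent in control leaves.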

How the data were processed

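Leaf poly(A) RNA of 3 air-dried and 3 control samples was sequenced as 100 bp paired ends, per the labels' protocols. Per the submitters' processing notes, FastQC, TopHat and Cufflinks were used. The sources used here name no version, build or annotation. The authors deposited FPKM for each of 112919 transcripts (45773 annotated, 67146 assembled) per library, per the file headers. FPKM scale out length and library size, so the depth behind a value is not visible.

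FPKM were summed per locus. The loci and comparisons were chosen with earlier results of these data known. Loci reaching 1 FPKM in 3 or more of the 6 libraries (22729) were tested on log2(FPKM + 1) with limma 3.58.1 in R 4.3.3 (mean-variance trend, two-sided, no covariates, Benjamini-Hochberg at 0.05). The script was tested on simulated data. Neighbours were the nearest tested loci by start position. Named loci were those with the highest air-dried mean or log2 difference, lowest or highest spread, control values of 0, adjacency, nearness to a limit, or a neighbour changed at least 2-fold. Further loci, with overlaps or several transcripts or outside the span limits, and loci around POPTR_0006s14090, were chosen after their values were seen. Gene and marker lists were not used, since no identifier has a name. Alternatives were pseudocount, filter, scaling, replicate block, library weights, trend, left-out libraries and the rule's limits. Figures were drawn with matplotlib 3.10.9.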

Additional observations from a re-analysis of the deposited data

How the results depend on the processing

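Scaling by median of ratios or upper quartile left 52 of the 55 loci, and the rule on 5 libraries, which drops a condition and so must keep all 55, gave 60 to 67 loci. Stricter or looser limits moved the number to 17 (control limit 0.5 FPKM), 21 (air-dried limit 5 FPKM) and 175 (air-dried limit 1 FPKM). The median log2 difference of 2.10 became 3.52 and 0.85 with pseudocounts of 0.1 and 5. Over the loci chosen by each changed rule, it was 3.25 and 0.91 with air-dried limits of 5 and 1 FPKM. With a library left out it lay between 1.87 and 2.15, also over the loci then chosen.

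Over all loci, 1655 were higher and 638 lower. Library weights gave 4326 and 2108, and quantile normalization 996 and 1191. Lower loci numbered 1021 and 1308 after median-of-ratios and upper-quartile scaling, as higher loci went to 1326 and 1111. Leaving out a library gave 795 to 1449 higher and 231 to 688 lower loci, and 7 to 13 neighbours called higher, against 14. Of 108 neighbours, 30 (27.8%, against 19.0% of all loci tested) were called higher with library weights and 8 (7.41%, against 3.15%) with no filter, and 4 of the 36 within 5000 bases (11.1%) in the reported fit. Of those 4 neighbours, 2 overlapped their member. The replicate block gave 753 higher and 175 lower loci and 9 neighbours called higher (8.33%, against 3.31%). Same-numbered libraries deviated together with correlations of 0.09, 0.19 and -0.12 for numbers 1, 2 and 3, and share only a number. The cause of these shifts was not tested. Control values under 1 FPKM limit the precision of every ratio given.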
